A study of Mus musculus with 78 samples.

Results

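The subject here is acetylcholine signalling in the mouse brain, followed through 10 genes: Chat, Slc5a7, Slc18a3, Ache, Chrm1, Chrm2, Chrm3, Chrm4, Chrna4 and Chrnb2. They were taken as a fixed list of symbols, and all 10 were found in both deposited count tables, each of which lists 55367 symbols. The study compared ACSS2 KO mice, which carry a constitutive CRISPR deletion in Acss2, with wild-type (WT) mice of strain C57BL6/J. The enzyme ACSS2 joins acetate, which ethanol breakdown yields, to coenzyme A. Poly(A) RNA of 7 brain regions was sequenced from 12 adult mice housed alone, 3 for each sex and genotype, giving 78 libraries (40 KO and 38 WT). KO and WT mice alike had drunk 15% ethanol by volume in the dark phase, first with water on offer and then without it, so no group was free of ethanol. KO mice were numbers 4, 5 and 6 (female) and 1, 2 and 10 (male), and WT mice were numbers 11, 23 and 24 (female) and 3, 12 and 13 (male). There were 12 libraries each of ventral and dorsal striatum and of dorsal and ventral hippocampus, 11 each of amygdala and cortex, and 8 of prefrontal cortex, of which 1 was from a male KO mouse.

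Acetylcholine is made from choline and acetyl-CoA by choline acetyltransferase (Chat). The high-affinity choline transporter (Slc5a7) supplies choline to the nerve ending, the vesicular transporter (Slc18a3) loads acetylcholine into vesicles, and acetylcholinesterase (Ache) breaks it down after release. In the striatum the transmitter comes mostly from sparse, large cholinergic interneurons, while hippocampus and cortex receive it largely through axons whose cell bodies, and therefore most of whose mRNA, lie elsewhere. It acts on muscarinic receptors, which couple to G proteins and are encoded by Chrm genes, and on nicotinic receptors, which are ion channels built from subunits encoded by Chrna and Chrnb genes.

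Chat and Slc18a3 form a nested locus, which bears on how their reads can be counted. In the GENCODE M21 annotation of GRCm38, Chat lies on the minus strand of chromosome 14 at 32408203 to 32465989, and Slc18a3, a gene of 1 exon, lies inside it at 32462438 to 32464850 on the same strand. The annotated starts are 1139 bases apart, and the exons of the pair share 0 bases. Slc5a7 lies on the minus strand of chromosome 17 at 54273590 to 54299034. The sequences directly upstream of these 3 starts are shown because the 3 genes varied together across libraries. They come from RefSeq (GRCm38.p6), in which 9 of the 10 genes have an entry, and they run 5′ to 3′ on the minus strand at chr14:32465990-32466159 (Chat), chr14:32464851-32465100 (Slc18a3, within the first intron of Chat) and chr17:54299035-54299284 (Slc5a7). The window of Chat holds 170 bases, since the rest of its entry lies within annotated transcript, and the others hold 250. Capitals mark E-boxes (CANNTG), GC boxes (GGGCGG, here read as its reverse complement) and the letters of a TATA box (TATAAA), each as a match of letters only.
Chat: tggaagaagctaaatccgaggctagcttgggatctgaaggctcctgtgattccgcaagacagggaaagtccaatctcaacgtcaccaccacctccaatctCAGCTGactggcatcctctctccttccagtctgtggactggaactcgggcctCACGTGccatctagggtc
Slc18a3: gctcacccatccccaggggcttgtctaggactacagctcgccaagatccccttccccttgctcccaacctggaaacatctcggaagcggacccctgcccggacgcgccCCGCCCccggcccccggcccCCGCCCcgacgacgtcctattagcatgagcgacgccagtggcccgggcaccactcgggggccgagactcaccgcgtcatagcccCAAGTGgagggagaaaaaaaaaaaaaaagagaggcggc
Slc5a7: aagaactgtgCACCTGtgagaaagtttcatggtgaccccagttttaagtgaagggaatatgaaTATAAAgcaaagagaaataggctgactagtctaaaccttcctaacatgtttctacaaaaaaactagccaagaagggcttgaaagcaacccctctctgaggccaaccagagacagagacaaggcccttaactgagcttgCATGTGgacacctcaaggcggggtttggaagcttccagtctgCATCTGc
Chat held 2 E-boxes, 70 and 18 bases before the start. Slc18a3 held 1 E-box at 38 bases and 2 GC boxes at 142 and 122 bases, in a window with 66% G and C. Slc5a7 held 3 E-boxes at 240, 49 and 7 bases and 1 match to the letters TATAAA at 187 bases. Over both strands of 32851 RefSeq windows of 250 bases, 66.2% held an E-box, 32.7% a GC box and 12.4% TATAAA, and 53.5% of windows of 170 bases held an E-box. E-boxes were thus the motif all 3 windows had in common, and most windows of any gene hold one. Neither the homeodomain core TAATTA (4.84% of 250-base windows) nor the cyclic AMP response element TGACGTCA (1.55%) was found in these letters.

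Depth and a few libraries limit what follows. Total counts ranged between 4454420 and 14487778 in a deeper set of 47 libraries (both striatal regions, amygdala and dorsal hippocampus), and between 629635 and 1228828 in a shallower set of 31 libraries (both cortical regions and ventral hippocampus). A floor of 3 counts, which covers counting error only, was worth 0.207 to 0.673 counts scaled to a column total of 1000000 (CPM) in the deeper set and 2.44 to 4.76 CPM in the shallower set. Regions were therefore tested within a set and only described across sets. Acss2 itself lay between 0.971 and 14 CPM in the 40 KO libraries and between 35.9 and 73.8 CPM in the 38 WT libraries, and it was called lower in KO in 7 of 7 regions. The prefrontal library labelled female WT 23 had 0 CPM of Xist, against its sex label. On a score of 9 markers of striatal projection neurons, the mean log2(CPM + 1), 7 libraries stood apart from their region. Those labelled dorsal striatum female WT 23 (3.97) and male KO 10 (4.88) and ventral striatum male KO 10 (6.29) and male WT 13 (5.26) were below 7. Those labelled ventral hippocampus female KO 6 (8.35), amygdala female KO 6 (7.39) and prefrontal cortex female KO 5 (7.41) were above 7. Without them, the score ran from 7.06 to 9.46 in the striatal regions and from 3.24 to 6.92 in the other regions. The cut at 7 was chosen on this score after seeing the data, so it fixed that split in advance. Kept libraries close to the cut were ventral striatum female WT 11 (7.06) and prefrontal cortex male KO 1 (6.92). For results that rest on the 7 libraries beyond the cut, values are given with and without them.

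The 3 genes of cholinergic neurons were high in both striatal regions, low in the amygdala and near or below the floor elsewhere. Chat ran from 3.98 to 53.0 CPM in the ventral striatum (median 24.7) and from 0.171 to 29.7 CPM in the dorsal striatum (median 18). In the amygdala it ran from 0 to 11.2 CPM (median 2.27), and in the dorsal hippocampus from 0 to 4.91 CPM (median 0.139). In the shallower set Chat was at 0 in 6 of 11 cortex libraries, 10 of 12 ventral hippocampus libraries and 4 of 8 prefrontal libraries. The low ends in the striatum were libraries that stood apart: dorsal striatum female WT 23 had 0.171 CPM of Chat and male KO 10 had 1.09, and ventral striatum male KO 10 had 3.98. Without libraries that stood apart, Chat was 29.1 ± 9.84 CPM in the ventral striatum (SD, n = 10) and 21 ± 5.06 CPM in the dorsal striatum (SD, n = 10), and the lowest values were 19.2 and 14.5 CPM. In bulk tissue, fewer cells of a type and less RNA per cell cannot be told apart.

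Slc5a7 followed the same order of regions as Chat within the deeper set. It had a median of 53.6 CPM in the ventral striatum (9.86 to 101.0), 32.9 CPM in the dorsal striatum (1.37 to 55.1), 2.52 CPM in the amygdala (0.407 to 21.3) and 0.539 CPM in the dorsal hippocampus (0.133 to 10.3). Slc18a3 had medians of 13.2 CPM (1.38 to 23), 6.89 CPM (0.342 to 11.9), 0.882 CPM (0.112 to 6.79) and 0.190 CPM (0 to 2.40) in the same regions. Outside the striatum the highest values came from single mice. The amygdala library of male WT 12 had 11.2 CPM of Chat, 21.3 of Slc5a7 and 6.79 of Slc18a3, each the highest there. The dorsal hippocampus library of female KO 6 had 4.91, 10.3 and 2.40 CPM, and its score of 6 thalamus and habenula markers was 5.36, the highest of that region. Female WT 23 had a score of 5.16 there, with 0.775, 0.930 and 0.155 CPM of the 3 genes. A relation to these markers was not tested. The ventral hippocampus library of female KO 6, the one with striatal markers, had 11.4, 20.8 and 5.19 CPM. The genes of cholinergic neurons were thus high there together with the markers of striatal projection neurons.

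**Figure D1:**
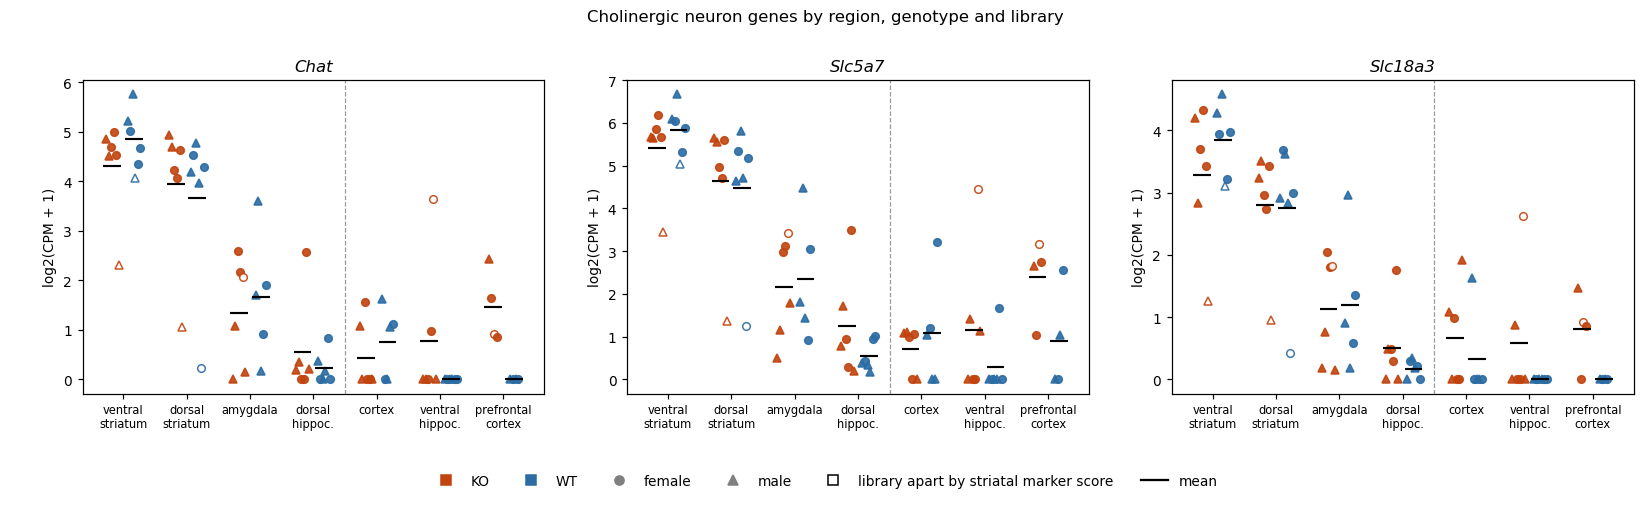
Levels of Chat, Slc5a7 and Slc18a3 in each library, as log2(CPM + 1), by region, with KO in orange, WT in blue, females as circles and males as triangles. Open symbols are the 7 libraries that stood apart by striatal markers, black lines are means of the plotted values, and the dashed line separates the deeper from the shallower set; all 3 genes are highest in the 2 striatal regions, and the low striatal points are open.

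Per kilobase of exon, which allows levels to be compared between genes, Slc5a7 had the highest mean of the 3 in the ventral striatum, 9.59 CPM per kb against 5.51 for Chat and 5.25 for Slc18a3. Within libraries the ratio was steady. In 12 ventral striatum libraries Slc5a7 was 1.51 to 2.07 times Chat per kilobase (median 1.81), and in the 10 dorsal striatum libraries with at least 20 Chat counts it was 1.17 to 1.74 times Chat (median 1.48). The ratio of Slc18a3 to Chat spread more widely, from 0.550 to 1.22 (median 0.917) in the ventral and from 0.555 to 1.06 (median 0.778) in the dorsal striatum.

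With all libraries, the region tests gave large differences for all 3 genes between striatum and the other deep regions, and none between the striatal regions that passed the threshold. In edgeR's quasi-likelihood test Chat was higher in the ventral striatum than in the dorsal hippocampus by 5.40 ± 0.72 on the log2 scale (SE, adjusted p = 9.21e-10) and than in the amygdala by 3.36 ± 0.51 (adjusted p = 1.28e-06). The corresponding differences of the dorsal striatum were 4.92 ± 0.72 (adjusted p = 8.31e-09) and 2.88 ± 0.52 (adjusted p = 1.03e-05). Slc5a7 and Slc18a3 passed the threshold in the same 4 contrasts, with log2 differences of 2.67 to 5.12 and 2.25 to 5.02. Between ventral and dorsal striatum the differences were 0.48 ± 0.43 for Chat (adjusted p = 0.499), 0.70 ± 0.42 for Slc5a7 (adjusted p = 0.277) and 0.75 ± 0.40 for Slc18a3 (adjusted p = 0.218). None of them passed the threshold, in a fit that holds 2 libraries of each striatal region that stood apart. Without those libraries, mean Slc5a7 was 55.5 (KO) and 66.1 CPM (WT) in the ventral striatum, against 39.7 and 35.8 CPM in the dorsal striatum. Mean Slc18a3 was 12.8 and 15.8 CPM against 8.21 and 8.59 CPM. All 3 genes were also called higher in the amygdala than in the dorsal hippocampus, with 2.03 ± 0.77 for Chat (adjusted p = 0.0191), 1.75 ± 0.63 for Slc5a7 (adjusted p = 0.0179) and 2.03 ± 0.69 for Slc18a3 (adjusted p = 0.00841). Those calls rested on male WT 12: without that mouse the differences were 1.44, 1.22 and 1.52, with adjusted p-values of 0.113, 0.100 and 0.0560. Without female KO 4 the Chat difference was 1.82 (adjusted p = 0.0537).

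Across the libraries of a striatal region, the genes of cholinergic neurons rose and fell together, and Chrm1 and Chrm2 had relations with Chat of opposite sign in the 2 regions once libraries that stood apart were left out. The 2 dorsal striatum libraries near 0 form a cluster of their own, so relations are given for the 10 libraries of each region that did not stand apart, on the scale of log2(CPM + 1), with p-values from 100000 permutations, adjusted over 9 relations per region. In the ventral striatum Slc5a7 correlated with Chat with Pearson's r = 0.942 and Spearman's rho = 0.915 (permutation p = 0.00011 and 0.0005, adjusted 0.00099 and 0.00342, n = 10), and Slc18a3 with r = 0.837 and rho = 0.867 (permutation p = 0.00237 and 0.00239, adjusted 0.00711 and 0.00538, n = 10). In the dorsal striatum the values were r = 0.943 and rho = 0.939 for Slc5a7 (permutation p = 0.00015 and 0.0002, adjusted 0.00135 and 0.0018, n = 10) and r = 0.800 and rho = 0.794 for Slc18a3 (permutation p = 0.00942 and 0.00869, adjusted 0.0283 and 0.0195, n = 10). Leaving out the 2 libraries farthest from the median of Chat left r between 0.833 and 0.964 for these pairs.

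Ache moved with Chat in the ventral striatum, with r = 0.836 and rho = 0.903 (permutation p = 0.00115 and 0.00076, adjusted 0.00517 and 0.00342, n = 10; r = 0.834 without the 2 farthest), while in the dorsal striatum r was 0.104 and rho 0.0424 (permutation p = 0.772 and 0.919, adjusted 0.772 and 0.919, n = 10; r = 0.421 without the 2 farthest). Chrm1 fell as Chat rose in the ventral striatum, with r = -0.719 and rho = -0.733 (permutation p = 0.0207 and 0.0200, adjusted 0.0372 and 0.0360, n = 10), and rose with it in the dorsal striatum, with r = 0.840 and rho = 0.806 (permutation p = 0.00248 and 0.00715, adjusted 0.0112 and 0.0195, n = 10). Chrm2 did the reverse, with r = 0.783 and rho = 0.879 in the ventral striatum (permutation p = 0.0094 and 0.00158, adjusted 0.0211 and 0.00474, n = 10) and r = -0.736 and rho = -0.806 in the dorsal striatum (permutation p = 0.0126 and 0.00726, adjusted 0.0284 and 0.0195, n = 10). Without the 2 farthest libraries these r values were -0.617 and 0.756 for Chrm1 and 0.599 and -0.499 for Chrm2. After removal of the means of each sex and genotype they were -0.757 and 0.795 for Chrm1 and 0.670 and -0.657 for Chrm2. The difference between the regions in these relations was not tested. Of the 10 ventral libraries, female WT 11 (7.06) and male WT 12 (8.07) had the lowest striatal projection neuron scores. Their Chrm1 was 69.6 and 82.8 CPM and their Chat 31.3 and 53.0 CPM. At the highest scores (9.42 and 9.12, female WT 24 and KO 6) Chrm1 was 220 and 217 CPM and Chat 24.6 and 21.9 CPM. Among the 10 dorsal libraries, male WT 3 had the lowest score (8.46) and 17.1 CPM of Chat. Male WT 12 had the highest (9.46) and 26.4 CPM. The part of this score in the relations was not tested. Over all 12 ventral striatum libraries, r was 0.988 for Slc5a7 and 0.953 for Slc18a3, while it was -0.100 for Chrm1 and 0.249 for Chrm2, so the receptor relations there were seen only without the 2 libraries that stood apart. Ache over all 12 had r = 0.661 and rho = 0.629 (permutation p adjusted to 0.0178 and 0.0941), and r = 0.353 without the 2 farthest. With the 2 dorsal striatum libraries near 0 added, Chrm1 had r = -0.514 and rho = 0.042 (permutation p adjusted to 0.136 and 0.902). Chrm2 there had r = -0.12 and rho = -0.559 (permutation p adjusted to 0.725 and 0.0954). Neither relation passed the threshold over all 12 dorsal striatum libraries, so both rested on leaving those 2 out. The rho of Chrm2 kept its negative sign.

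Among the 10 libraries of each region, no other receptor gene had adjusted permutation p-values under 0.05 for both r and rho. Chrm4 came near in the dorsal striatum, with r = 0.74 and rho = 0.685 (permutation p adjusted to 0.0289 and 0.0633). There its r was close in size to that of Chrm2, and it was 0.776 without the 2 farthest libraries. In the ventral striatum Chrm4 had r = -0.457 and rho = -0.467 (adjusted to 0.235 and 0.229). Chrm3 had r = -0.427 and rho = -0.285 in the dorsal striatum (permutation p adjusted to 0.278 and 0.55) and r = 0.129 and rho = 0.103 in the ventral striatum (adjusted to 0.731 and 0.786). For Chrna4 and Chrnb2 the adjusted permutation p-values ran from 0.0624 to 0.91.

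**Figure D2:**
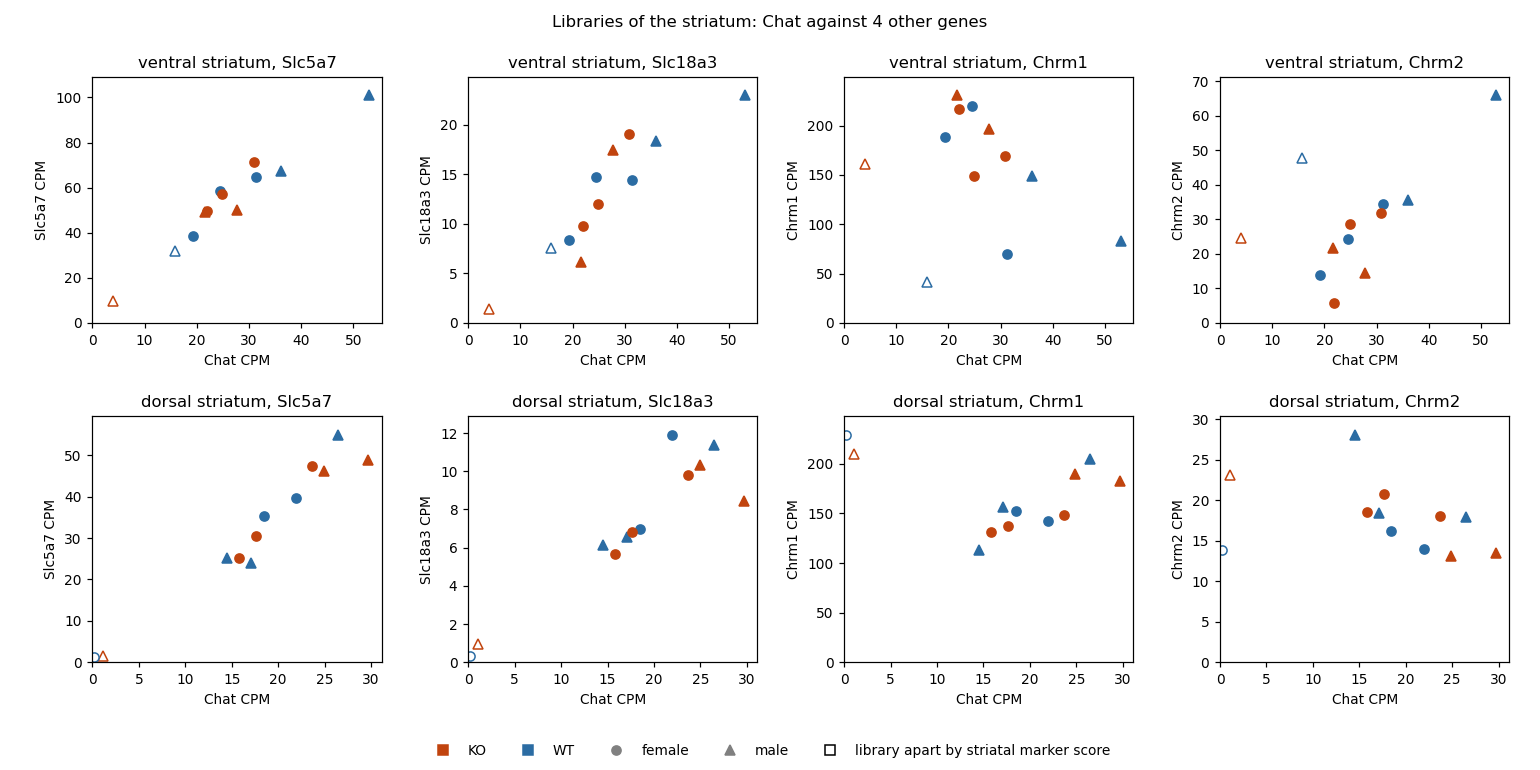
Chat against Slc5a7, Slc18a3, Chrm1 and Chrm2 in the ventral (top) and dorsal (bottom) striatum, in CPM, 1 point per library, with KO in orange, WT in blue, females as circles, males as triangles and the libraries that stood apart as open symbols. Slc5a7 and Slc18a3 rise with Chat in both regions, while among filled points Chrm1 falls and Chrm2 rises with Chat in the ventral striatum and the reverse holds in the dorsal striatum.

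Ache, the enzyme that ends the signal, was present in every region at levels that differed far less than those of Chat. It ran from 68.0 to 153 CPM in the ventral striatum (median 121) and from 49.9 to 220 CPM in the amygdala (median 93.6). In the dorsal striatum it ran from 48.5 to 80.4 CPM (median 59.0), in the dorsal hippocampus from 38.7 to 125 CPM (median 55.1), and medians in the shallower set were 43.8 (cortex), 60.2 (ventral hippocampus) and 61.6 CPM (prefrontal cortex). Ventral striatum and amygdala thus led, with ranges that overlapped those of the other regions. Ache was higher in the ventral than in the dorsal striatum by 0.81 ± 0.16 on the log2 scale (adjusted p = 0.000583) and than in the dorsal hippocampus by 0.84 ± 0.16 (adjusted p = 2.23e-05), and lower in the dorsal striatum than in the amygdala, at -0.63 ± 0.16 (adjusted p = 0.00119). In WT libraries alone the ventral to dorsal difference was 0.94 (adjusted p = 0.0944). Ache was not called between the ventral striatum and the amygdala (0.18 ± 0.16, adjusted p = 0.365), or between the dorsal striatum and the dorsal hippocampus (0.03 ± 0.16, adjusted p = 0.902). The amygdala was above the dorsal hippocampus by 0.65 ± 0.16 (adjusted p = 0.00134). Ache thus separated the 2 striatal regions in the fit of all libraries, in which Chat was not called between them.

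Of the muscarinic receptors, Chrm4 was the striatal gene and Chrm1 and Chrm3 the genes with higher levels outside it. Chrm4, a receptor that couples to inhibitory G proteins and is abundant in striatal projection neurons of the direct pathway, ran from 7.90 to 63.5 CPM in the ventral striatum (median 47.3) and from 17.3 to 74.1 CPM in the dorsal striatum (median 43.8). It ran from 12.6 to 31.4 CPM in the amygdala (median 21.3) and from 5.13 to 11.5 CPM in the dorsal hippocampus (median 7.64). The lowest striatal values, 7.90 CPM in the ventral striatum of male WT 13 and 17.3 CPM in the dorsal striatum of female WT 23, belonged to libraries that stood apart. Apart from the ventral striatum of male WT 13, every striatal library was above every dorsal hippocampus library. Chrm4 was higher than in the dorsal hippocampus by 2.30 ± 0.25 in the ventral striatum (adjusted p = 4.46e-10), 2.41 ± 0.25 in the dorsal striatum (adjusted p = 1.17e-10) and 1.39 ± 0.26 in the amygdala (adjusted p = 3.12e-05). Against the amygdala it was higher by 0.91 ± 0.24 in the ventral (adjusted p = 0.00219) and 1.02 ± 0.24 in the dorsal striatum (adjusted p = 0.000442), and the striatal regions did not differ beyond error (-0.11 ± 0.23, adjusted p = 0.792). In WT libraries alone the differences from the amygdala were 0.73 (adjusted p = 0.222) and 0.90 (adjusted p = 0.0982) for Chrm4.

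Chrm1, a Gq-coupled receptor of principal neurons, had the highest mean CPM of the listed muscarinic genes in every region. Its own highest median was in the dorsal hippocampus. It ran from 89.4 to 387 CPM in the dorsal hippocampus (median 279), 82.2 to 264 CPM in the amygdala (median 205), 40.9 to 231 CPM in the ventral striatum (median 165) and 113 to 230 CPM in the dorsal striatum (median 155). The 3 shallower regions had medians of 194 (cortex), 198 (ventral hippocampus) and 187 CPM (prefrontal cortex). Chrm1 was lower than in the dorsal hippocampus in both striatal regions, with log2 differences of -0.88 ± 0.20 in the ventral (adjusted p = 0.000306) and -0.74 ± 0.20 in the dorsal striatum (adjusted p = 0.002). The second of these was -0.73 in WT libraries alone (adjusted p = 0.146). The amygdala was not called against the dorsal hippocampus (-0.44 ± 0.20, adjusted p = 0.0832) unless female WT 23 was left out (Chrm1 at -0.58, adjusted p = 0.0143), a mouse whose dorsal hippocampus library had the lowest Chrm1 there.

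Chrm3, also Gq-coupled, was lowest in the striatum and highest in the cortex. It had medians of 25.4 CPM in the ventral striatum (10.6 to 46.7), 24.1 in the dorsal striatum (11.3 to 85.4), 35.6 in the amygdala (16.1 to 68.9) and 55.0 in the dorsal hippocampus (37.3 to 87.9). In the shallower set the medians were 79.0 CPM in the cortex (46.1 to 106), 47 in the ventral hippocampus (25.3 to 79.2) and 50.0 in the prefrontal cortex (33.4 to 64.3). The highest dorsal striatum values, 85.4 and 82.3 CPM, were in male KO 10 and female WT 23, which had cortical excitatory neuron scores of 6.69 and 6.59; without them the mean was 23.5 ± 10.5 CPM (SD, n = 10) and the highest value 45.8 CPM. Chrm3 was lower than in the dorsal hippocampus at -1.14 ± 0.28 in the ventral striatum (adjusted p = 0.000708) and -0.83 ± 0.28 in the dorsal striatum (adjusted p = 0.0112), and without libraries that stood apart these were -1.26 and -1.35. The difference between dorsal striatum and amygdala, -0.10 ± 0.28 with all libraries (adjusted p = 0.793), was -0.61 ± 0.25 without them (adjusted p = 0.0367). Chrm3 was called lower in the amygdala than in the dorsal hippocampus (-0.73 ± 0.28, adjusted p = 0.0365), and that call ended when any of female KO 4 or 5, female WT 24, male KO 1 or 2 or male WT 12 or 13 was left out (-0.75 to -0.63, adjusted p = 0.0515 to 0.0841). In the cortex Chrm3 was higher than in the ventral hippocampus by 0.83 ± 0.15 (adjusted p = 6.27e-05) and than in the prefrontal cortex by 0.75 ± 0.17 (adjusted p = 0.000666).

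Chrm2, an inhibitory receptor that acts as an autoreceptor on cholinergic endings in many regions, had its highest median in the ventral striatum. It ran from 5.84 to 66.0 CPM there (median 26.6), from 13.1 to 28.1 CPM in the dorsal striatum (median 17.9), from 5.16 to 36.1 CPM in the amygdala (median 14.1) and from 3.33 to 27.4 CPM in the dorsal hippocampus (median 8.33). All of these ranges overlapped. It was called higher than in the dorsal hippocampus in the ventral striatum (1.28 ± 0.27, adjusted p = 0.000122). The calls against the amygdala in the ventral striatum (0.73 ± 0.27, adjusted p = 0.0259) and against the dorsal hippocampus in the dorsal striatum (0.68 ± 0.27, adjusted p = 0.0325) were less firm. Without libraries that stood apart they were 0.68 (adjusted p = 0.0580) and 0.62 (adjusted p = 0.0680). The first ended without female KO 5, male KO 10, male WT 3 or male WT 13 (0.63 to 0.65, adjusted p = 0.0571 to 0.0726), and the second without female KO 5, female WT 11 or 24, male KO 1 or 10 or male WT 13 (0.55 to 0.68, adjusted p = 0.0526 to 0.0920). In the shallower set Chrm2 was lowest in the ventral hippocampus, where it ran from 2.98 to 19.2 CPM (median 8.17), below the cortex by 1.03 ± 0.29 (adjusted p = 0.0054) and at -1.15 ± 0.30 against the prefrontal cortex (adjusted p = 0.00318).

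On the scale of CPM per kilobase, the balance of muscarinic genes differed between regions. In the ventral striatum mean levels were 28.7 CPM per kb for Chrm4, 24.1 for Chrm1, 4.81 for Chrm2 and 4.43 for Chrm3. In the dorsal hippocampus they were 41.6 for Chrm1, 9.13 for Chrm3, 5.65 for Chrm4 and 1.82 for Chrm2. Chrm4 and Chrm1 were thus level within their spread in the ventral striatum (SD 12.4 and 9.57 CPM per kb, n = 12 each), while in the dorsal hippocampus Chrm1 stood above the other 3. The length of Chrm4 is that of a model with 1 exon, so a longer real transcript would lower its value on this scale.

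Chrna4 and Chrnb2 encode the subunits of the common high-affinity nicotinic receptor of the brain, and the medians of Chrna4 lay close together in the deeper regions. Chrna4 had medians of 26.5 CPM in the ventral striatum (14.9 to 51.9), 24.7 in the dorsal striatum (15.5 to 54.1), 25.3 in the amygdala (14.7 to 32.8) and 26.7 in the dorsal hippocampus (10.3 to 67.9). None of the 6 contrasts among these regions was called, with log2 differences from -0.33 to 0.29. In the prefrontal cortex Chrna4 ran from 20.4 to 65.5 CPM (median 52.3), against 7.33 to 43 in the cortex (median 20.1) and 5.20 to 50.2 in the ventral hippocampus (median 33.4). The prefrontal level was the higher one in both contrasts, with log2 differences of -1.16 ± 0.28 for cortex over prefrontal cortex (adjusted p = 0.0012) and -0.77 ± 0.26 for ventral hippocampus over prefrontal cortex (adjusted p = 0.0227). Without male WT 12 the second was -0.68 (adjusted p = 0.0597), and in WT libraries alone the 2 values were -0.82 (adjusted p = 0.221) and -0.91 (adjusted p = 0.152), so neither Chrna4 call held there.

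Chrnb2 ran from 63.0 to 115 CPM in the ventral striatum (median 80.9), from 51.3 to 81.9 in the dorsal striatum (median 61.2), from 58.9 to 97.3 in the amygdala (median 73.1) and from 50.5 to 77.2 in the dorsal hippocampus (median 63.5). Its highest value, 115 CPM, was in the ventral striatum library of male WT 13. Chrnb2 was higher in the ventral striatum than in the dorsal striatum by 0.38 ± 0.07 (adjusted p = 0.000278) and than in the dorsal hippocampus by 0.31 ± 0.07 (adjusted p = 0.000258). Against the amygdala the ventral striatum differed by 0.17 ± 0.07 (adjusted p = 0.0509, and 0.0219 with the mouse as a replicate block), and the dorsal striatum by -0.21 ± 0.07 (adjusted p = 0.0116). In the shallower set Chrnb2 was lower in the cortex than in the prefrontal cortex (-0.53 ± 0.11, adjusted p = 0.000268). The cortex was also below the ventral hippocampus (-0.27 ± 0.10, adjusted p = 0.045), a call that ended with the mouse as a replicate block (-0.28, adjusted p = 0.0721) and without female KO 5 or 6, female WT 23 or 24, male KO 1, 2 or 10 or male WT 12 (-0.29 to -0.23, adjusted p = 0.0550 to 0.125). The model of Chrnb2 shares 1365 bases, 16.3% of its exonic length, with Adar on the opposite strand. The library kit does not mark strand, and how reads in shared bases were counted is not given. The Chrnb2 count could thus include reads of Adar or lack reads of its own.

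**Figure D3:**
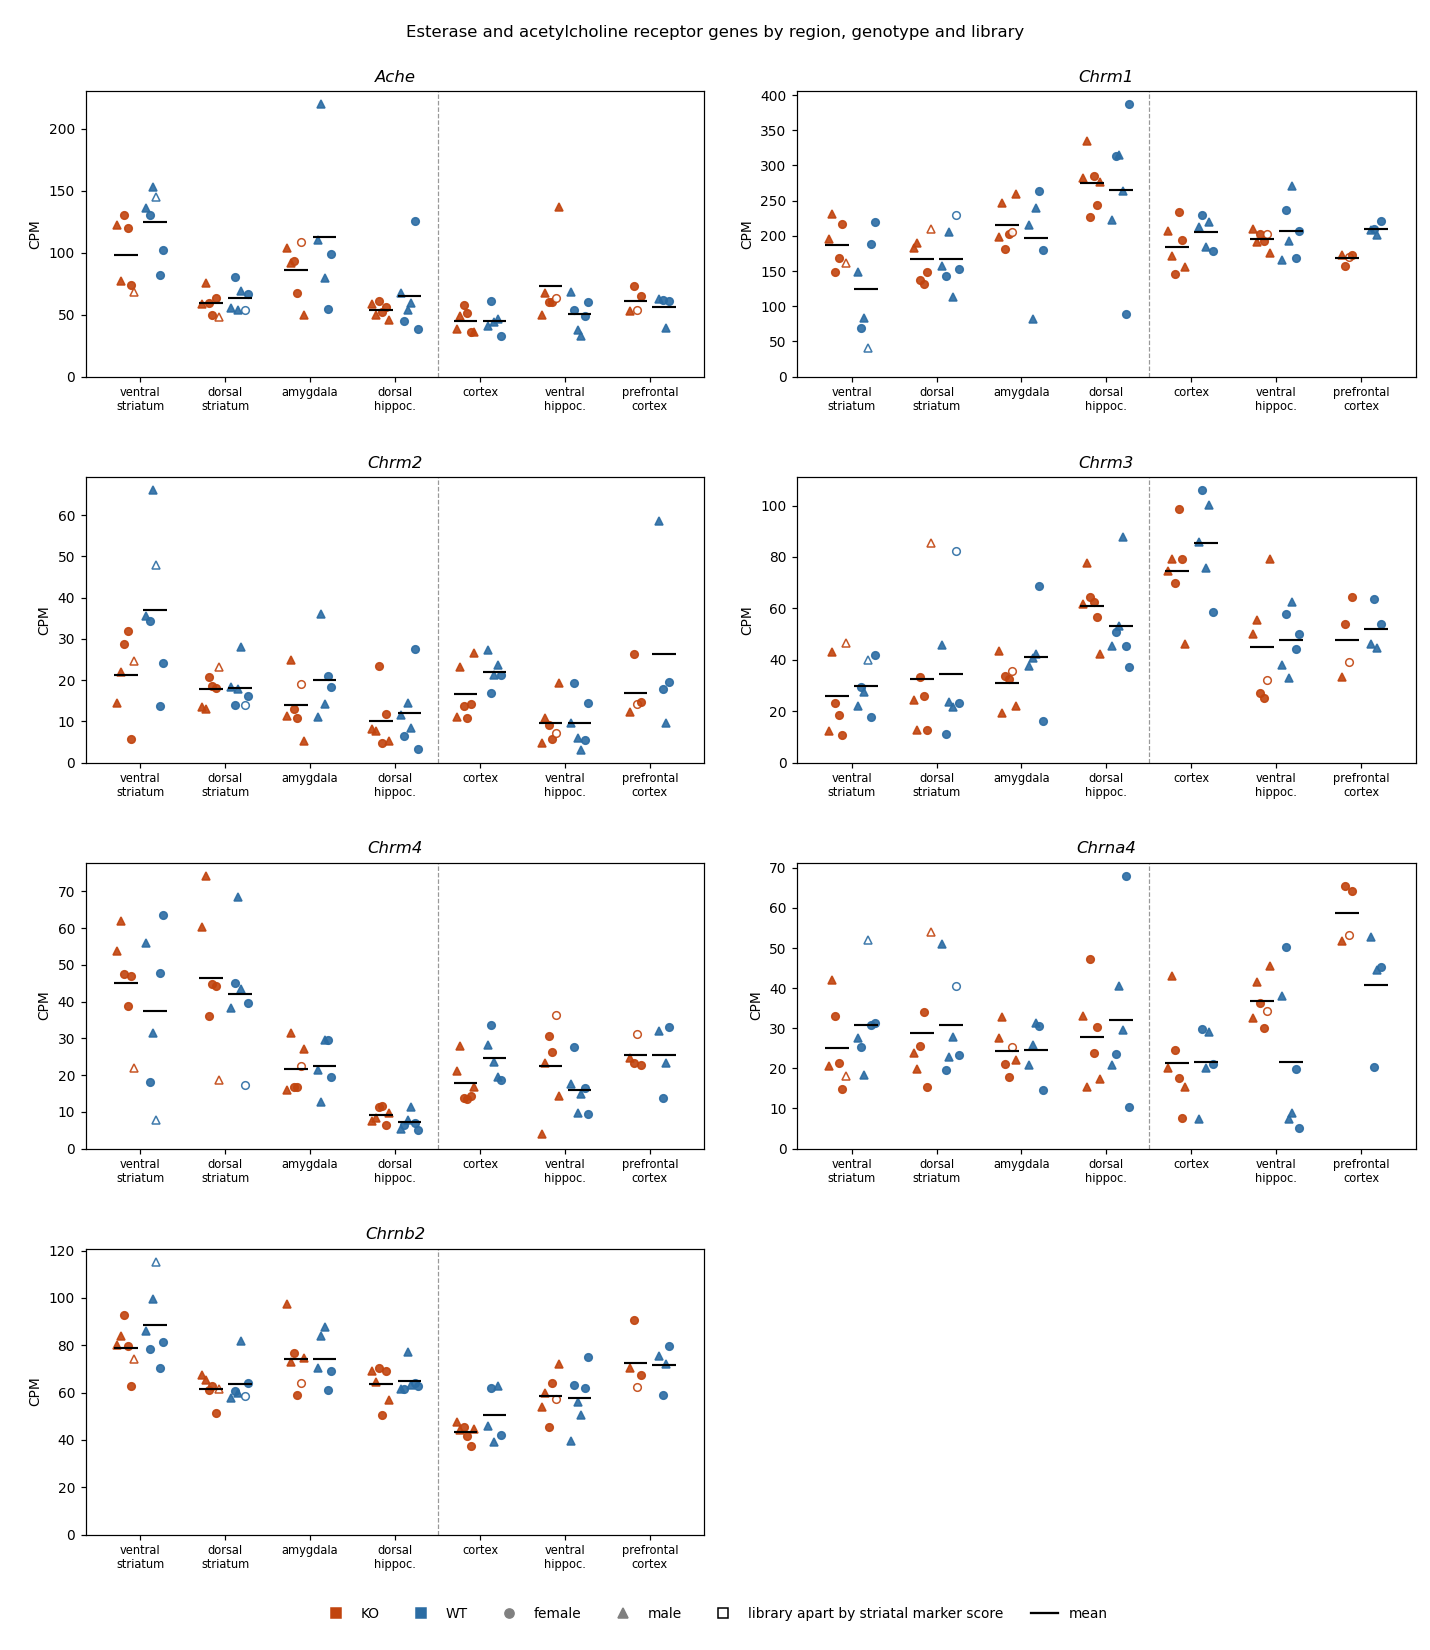
Levels of Ache, the 4 muscarinic receptor genes and the 2 nicotinic subunit genes in CPM, 1 point per library, by region; KO is orange, WT blue, females are circles, males triangles, open symbols the libraries that stood apart, black lines the means, and the dashed line separates the deeper from the shallower set. Chrm4 is highest in the striatal regions, Chrm1 in the dorsal hippocampus, Chrm3 in the cortex and Chrna4 in the prefrontal cortex, and KO and WT points overlap except for Chrm1 in the prefrontal cortex.

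Counted over the 10 genes, region contrasts called 2 for ventral against dorsal striatum, where 13.7% of all genes tested were called, and 5 for ventral striatum against amygdala, where 46.9% were. The ventral striatum against the dorsal hippocampus gave 9 (53.9% of all genes), and the dorsal striatum against the amygdala 6 (55.6%). The dorsal striatum against the dorsal hippocampus gave 7 (54.7%) and the amygdala against the dorsal hippocampus 6 (39.1%). In the shallower set, where 7 of the 10 genes passed the filter on low counts, cortex against ventral hippocampus gave 3 (29.3%), cortex against prefrontal cortex 3 (39.4%) and ventral hippocampus against prefrontal cortex 2 (30.9%). Brain regions differed in a large share of all genes, so these counts describe the members and single out none of them as a group.

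**Figure D4:**
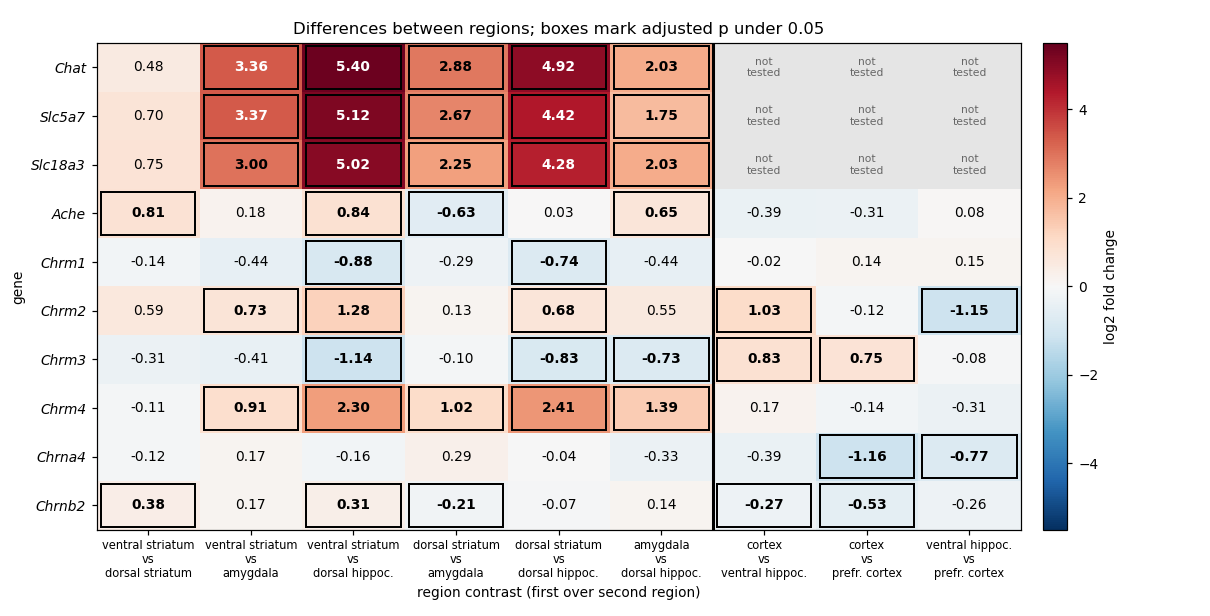
Log2 fold change of each gene (vertical axis) in each region contrast (horizontal axis, first region over second), coloured by sign and size, with boxes around values under an adjusted p of 0.05. The 3 genes of cholinergic neurons have the largest differences, up to 5.40 for Chat between ventral striatum and dorsal hippocampus, and they were not tested in the shallower set because of low counts.

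Other genes of the pathway were taken from lists of known function. Of 7 genes linked to the identity of cholinergic neurons (Isl1, Lhx8, Gbx1, Gbx2, Zic4, Ngfr and Slc17a8), 7 of 7 tested were called higher in the ventral striatum than in the amygdala, where 23.1% of all genes were higher and 23.8% lower. Of the same list 5 were higher and 0 lower than in the dorsal hippocampus (26.8% and 27% of all genes). Slc17a8, a vesicular glutamate transporter also found in striatal cholinergic interneurons, was higher than in the amygdala by 2.52 ± 0.29 (adjusted p = 5.21e-09). Ventral over dorsal striatum gave 4 of 7 called higher (Ngfr, Gbx2, Gbx1 and Lhx8) and 0 lower (8.15% and 5.58% of all genes). Chat itself was not called in that fit of all libraries. For the same 7 genes, dorsal striatum gave 4 higher against the amygdala (27.8% of all genes higher, 27.9% lower) and 4 higher against the dorsal hippocampus (27.5% and 27.1%), with 0 lower in both.

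Proteins of the Ly6 family and receptor chaperones, which shape nicotinic receptor assembly and gating, differed between regions in both directions. Ly6h was higher in the ventral than in the dorsal striatum by 0.95 ± 0.13 (adjusted p = 6.21e-06) and lower in both than in the amygdala, at -1.57 ± 0.14 (adjusted p = 3.86e-12) and -2.52 ± 0.14 (adjusted p = 4.93e-18). Lypd1 was also lower than in the amygdala, at -2.31 ± 0.19 in the ventral (adjusted p = 2.98e-12) and -2.97 ± 0.19 in the dorsal striatum (adjusted p = 1.50e-15). Of the 8 genes of this list, 4 were higher and 0 lower in ventral against dorsal striatum (8.15% and 5.58% of all genes). Against the amygdala, 1 was higher and 4 lower in the ventral striatum (23.1% and 23.8% of all genes) and 1 higher and 5 lower in the dorsal striatum (27.8% and 27.9%). Against the dorsal hippocampus, 4 were higher and 2 lower in the ventral striatum (26.8% and 27%) and 1 higher and 3 lower in the dorsal striatum (27.5% and 27.1%). Lynx1, which encodes a brake on nicotinic receptors, was higher in the cortex than in the prefrontal cortex by 1.17 ± 0.11 (adjusted p = 1.97e-09).

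Of 15 further receptor genes, 6 passed the filter on low counts in the deeper set. Chrna2 and Chrm5 were higher in the ventral than in the dorsal striatum, by 3.61 ± 0.62 (adjusted p = 2.95e-05) and 1.89 ± 0.42 (adjusted p = 0.00139). Chrna7, the subunit of the homomeric nicotinic receptor of hippocampus, was the 1 gene of this list that passed the filter in the shallower set, and it was higher in the ventral hippocampus than in the prefrontal cortex by 1.20 ± 0.27 (adjusted p = 0.000704). Among 8 genes of acetyl-CoA supply, Acly, which cleaves citrate to acetyl-CoA, was higher in the ventral striatum than in the dorsal hippocampus by 1.02 ± 0.09 (adjusted p = 4.54e-12). Slc44a5, of the choline-transporter-like family, was lower in the dorsal striatum than in the dorsal hippocampus (-2.16 ± 0.19, adjusted p = 1.09e-12) and lower in the cortex than in the ventral hippocampus (-3.15 ± 0.37, adjusted p = 5.09e-10).

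Genes with the most similar pattern were sought over the 47 deeper libraries among 14755 genes, by Pearson's r of log2(CPM + 1), as a description of points that share regions, mice and depth. For Chat the first were Slc5a7 (r = 0.984) and Slc18a3 (r = 0.984). Chrm4 was closest to Wdr17, Ankrd63 and Arpp21 (r = 0.953, 0.947 and 0.945), and Chrm1 to Synpo, Grasp and Mmp17 (r = 0.937, 0.936 and 0.934). For Ache the nearest were Smim17, Gm13112 and Dgkk (r = 0.910, 0.908 and 0.892), and for Chrnb2 they were Pcdhgc4, Trp53bp1 and Cds2 (r = 0.880, 0.846 and 0.813). Chrm2 (Sacm1l, r = 0.852) and Chrm3 (Tmem178, r = 0.845) had looser neighbours, and Chrna4 the loosest (Dpp4, r = 0.694). The genes of cholinergic neurons thus had their closest neighbours in each other.

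None of the 10 genes was called between KO and WT mice in any region once genes with low counts were filtered out. With no filter, Chrna4 was called in the ventral hippocampus. With the sexes fitted together, 58 tests of the members in 7 regions gave 0 calls in edgeR's quasi-likelihood test and 0 in DESeq2; 3 had an unadjusted p under 0.05 in each tool, and the smallest adjusted p in edgeR was 0.425. Over all genes tested, the called shares were 0.00708% (ventral striatum), 0.00689% (dorsal striatum), 0.00657% (amygdala), 0.0069% (dorsal hippocampus), 0.00947% (cortex), 0.00929% (ventral hippocampus) and 0.0925% (prefrontal cortex). At an unadjusted p under 0.05 the shares of all genes, in the same order, were 7.29%, 1.54%, 3.52%, 2.84%, 6.46%, 5.01% and 8.63%. In each region other than the prefrontal cortex the first shares amount to 1 gene, Acss2. Of the 58 fold changes of members, 21 were positive and 37 negative. No gene of the wider acetylcholine lists was called in a KO comparison except Acss2 itself, 1 of the 8 genes of acetyl-CoA supply.

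**Figure D5:**
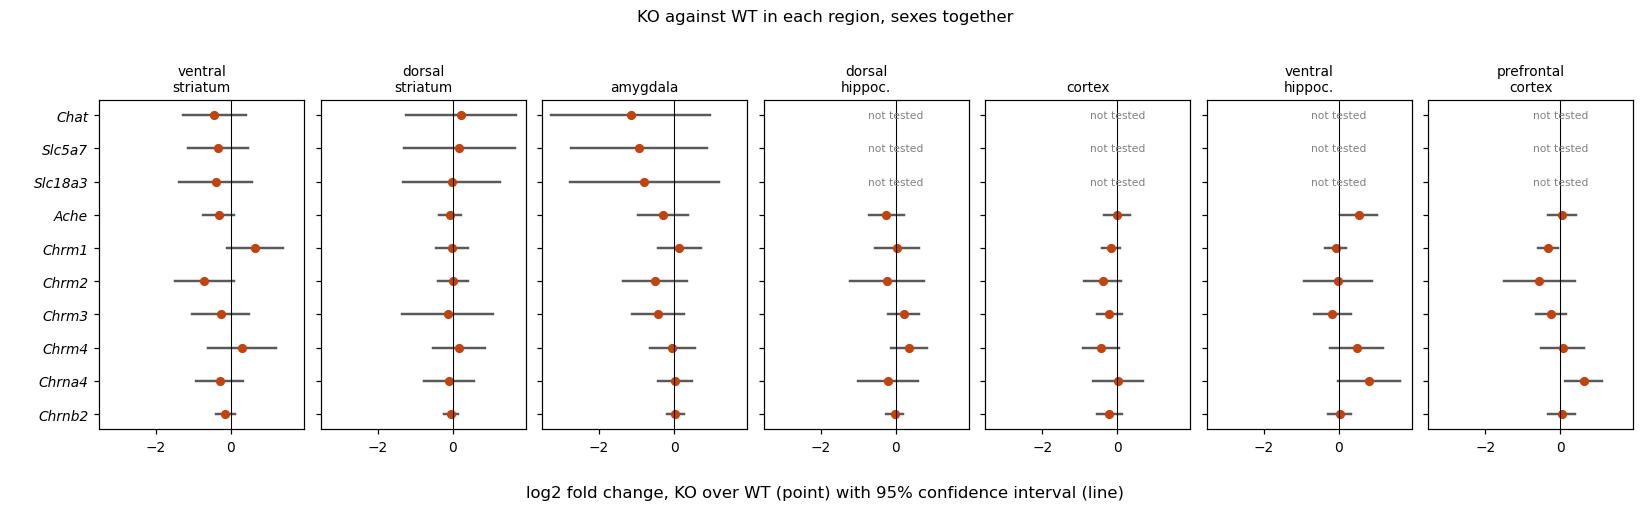
Log2 fold change of KO over WT (horizontal axis) for each of the 10 genes (vertical axis) in each region, with points at the edgeR estimates and lines for the 95% confidence intervals. Chat, Slc5a7 and Slc18a3 were not tested in 4 regions because of low counts, their intervals are wide in the dorsal striatum and amygdala, and no value passed an adjusted p of 0.05.

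In the ventral striatum the genes of cholinergic neurons had lower means in KO, within the spread of the libraries. Chat was 21.8 ± 9.44 CPM in 6 KO libraries (3.98, 21.7, 21.9, 24.9, 27.8 and 30.9 CPM) and 30 ± 13.5 CPM in 6 WT libraries (15.8, 19.2, 24.6, 31.3, 36.1 and 53.0 CPM; SD). The KO and WT values of Chat interleave, and the highest 3 are 2 WT males and 1 WT female. The log2 difference of Chat was -0.45 ± 0.39 (95% interval -1.29 to 0.39, adjusted p = 0.723), and -0.31 ± 0.20 without the 2 libraries that stood apart (adjusted p = 0.748). Slc5a7 (-0.35 ± 0.37, adjusted p = 0.765) and Slc18a3 (-0.41 ± 0.45, adjusted p = 0.776) had differences of like size and error. Ache averaged 98.5 ± 28.3 CPM over the KO libraries and 125 ± 27.2 CPM over the WT libraries (SD, n = 6 each), a log2 difference of -0.32 ± 0.19 (adjusted p = 0.651).

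The ventral striatum also held the largest differences of muscarinic genes between the genotypes among the deeper regions, and these too missed the threshold. Chrm1 averaged 187 ± 32.7 CPM in KO libraries against 125 ± 71.4 CPM in WT libraries (SD, n = 6 each), a log2 difference of 0.63 ± 0.34 (95% interval -0.11 to 1.38, adjusted p = 0.651). Chrm2 averaged 21.2 ± 9.65 CPM in KO against 37 ± 18.3 CPM in WT, with -0.71 ± 0.36 (95% interval -1.50 to 0.07, adjusted p = 0.651). Without the libraries that stood apart the 2 differences were 0.44 ± 0.31 and -0.67 ± 0.42. The lowest Chrm1 values of WT were those of male WT 13 (40.9 CPM), female WT 11 (69.6 CPM) and male WT 12 (82.8 CPM). Striatal projection neuron scores were low in WT 13 (5.26) and WT 11 (7.06), and WT 12 came next among kept libraries. Male KO 10 also scored low (6.29), with 161 CPM of Chrm1. Leaving out libraries that stood apart keeps WT 11 and WT 12. The part of this score in the genotype differences was not tested. Male WT mice had 40.9, 82.8 and 149 CPM of Chrm1 and 35.6, 47.9 and 66.0 CPM of Chrm2. Male KO mice had 161, 196 and 231 CPM of Chrm1 and 14.4, 21.8 and 24.6 CPM of Chrm2. Among males the genotypes did not overlap in 4 of the 10 genes (Ache, Chrm1, Chrm2 and Chrnb2), where 15.7% of all genes with a mean of at least 1 CPM did not overlap. Of these males, KO 10 and WT 13 stood apart by striatal markers, and WT 13 had the lowest Chrm1 (40.9 CPM) and the highest Chrnb2 (115 CPM). Without both, Chrm1 was 196 and 231 CPM in male KO against 82.8 and 149 CPM in male WT. Chrm2 was then 14.4 and 21.8 CPM against 35.6 and 66.0 CPM. Females overlapped in all 10, where 7.69% of all genes did not, with Chrm1 at 149, 169 and 217 CPM in KO against 69.6, 188 and 220 CPM in WT. In males alone, with KO 10 and WT 13 included, the log2 differences were 1.15 for Chrm1 and -1.26 for Chrm2, and neither was called. Whether the sexes differed was tested directly, and no member was called in the ventral striatum.

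For the genes of cholinergic neurons in the amygdala and the dorsal striatum, errors were as large as most differences. Dorsal striatum Chat was 18.8 ± 10.0 CPM in KO libraries against 16.4 ± 8.98 CPM in WT (SD, 6 each), with a log2 difference of 0.23 ± 0.67 (95% interval -1.24 to 1.70, adjusted p = 1.00). Each genotype there has 1 library that stood apart, and without both the Chat difference was 0.24 ± 0.21 (SE, n = 10, adjusted p = 1.00). The other members of the dorsal striatum lay between -0.13 and 0.18. In the amygdala Chat differed by -1.16 ± 0.96 (95% interval -3.27 to 0.96, adjusted p = 0.993); this interval reaches from well below to well above no change. Chrna4 and Chrnb2 had amygdala differences of 0.02 ± 0.20 and 0.03 ± 0.10, with intervals of -0.43 to 0.47 and -0.19 to 0.25.

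The prefrontal cortex was the region where member values of KO and WT were separate. Chrm1 had 157, 170, 173 and 173 CPM in KO and 201, 209, 210 and 221 CPM in WT, with no overlap and a log2 difference of -0.32 ± 0.12 (adjusted p = 0.425 in edgeR). Chat had 0.814, 0.888, 2.11 and 4.39 CPM in KO, from 1 to 5 counts each, and 0 in 4 of 4 WT libraries, where a count of 0 leaves levels below the floor possible. With the sexes together, Chrm1 and Chat were the only 2 of the 10 genes with separate KO and WT ranges, in this or any other region, and in the prefrontal cortex 3.86% of all genes with a mean of at least 1 CPM had separate ranges. In the other regions such shares were 0.39% (ventral striatum), 0.0542% (dorsal striatum), 0.17% (amygdala), 0.0965% (dorsal hippocampus), 0.531% (cortex) and 0.159% (ventral hippocampus). Chrna4 averaged 58.7 ± 7.16 CPM in KO libraries against 40.7 ± 14.1 CPM in WT libraries (SD, n = 4 each), a log2 difference of 0.62 ± 0.23 (adjusted p = 0.431 in edgeR). Without WT mouse 11 the Chrna4 difference was 0.27. At an unadjusted p under 0.05, 8.63% of all genes passed in this region, against 2 of the 7 members tested.

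Tissue markers moved with genotype in the prefrontal cortex. The 9 striatal projection neuron markers, each with a mean above 1 CPM and none at 0, summed to 712 to 2134 CPM in KO libraries against 234 to 396 CPM in WT, and their score was 6.53 ± 0.77 in KO and 4.34 ± 0.47 in WT (SD, n = 4 each). The oligodendrocyte markers summed to 2671 to 11970 CPM in KO libraries against 1819 to 3461 CPM in WT. Their part in the values of Chat, Chrm1 and Chrna4 was not tested. Leaving out the library labelled female WT 23, whose sex genes go against its label, gave -0.30 for Chrm1 (adjusted p = 0.545) and 0.77 for Chrna4 (adjusted p = 0.306).

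In the ventral hippocampus Ache averaged 72.9 ± 31.8 CPM in KO libraries against 50.2 ± 13.5 CPM in WT libraries (SD, n = 6 each), with a log2 difference of 0.53 ± 0.23 (adjusted p = 0.966 in edgeR), in a region where 5.01% of all genes had an unadjusted p under 0.05. The value rested in part on male KO 10, with 137 CPM of Ache: without that mouse the difference was 0.28. Chrna4 there averaged 36.7 ± 5.80 CPM in KO libraries against 21.6 ± 18.6 CPM in WT libraries (SD, n = 6 each), with 0.82 ± 0.39 (adjusted p = 0.966). With no filter on low counts the difference of Chrna4 was 0.83 and was called (adjusted p = 0.0258), in a fit that called 101 of 23674 genes where the filtered fit called 1 of 10769. WT values of Chrna4 fell to 5.20, 7.29 and 8.93 CPM in 3 libraries and reached 50.2 CPM in another, so the KO values lay inside the WT range.

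No member was called between females and males either. The 58 tests gave 0 calls in edgeR and 0 in DESeq2, with 3 and 2 at an unadjusted p under 0.05, while 0.0425% (ventral striatum), 0.0482% (dorsal striatum), 0.0394% (amygdala), 0.0414% (dorsal hippocampus), 0.104% (cortex), 0.0464% (ventral hippocampus) and 0.042% (prefrontal cortex) of all genes were called. The 3 were Chrnb2 in the amygdala, lower in females at -0.32 ± 0.10 (adjusted p = 0.162 in edgeR), Chrm4 in the ventral hippocampus (0.81 ± 0.34, adjusted p = 0.999) and Chrm3 in the prefrontal cortex (0.51 ± 0.20, adjusted p = 0.657). The shares of all genes at an unadjusted p under 0.05 were, in the same order, 2.95%, 7.97%, 18.1%, 4.12%, 3.66%, 4.23% and 6.33%. Each sex has a count table of its own, so sex and table cannot be told apart.

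The KO effect was also compared between the sexes, in the 6 regions with at least 2 libraries in every group. Of 51 tests, 0 were called in edgeR and 0 in DESeq2, with 6 and 4 at an unadjusted p under 0.05, and over all genes 0% were called in each region and 3.84% (ventral striatum), 4.76% (dorsal striatum), 4.42% (amygdala), 1.33% (dorsal hippocampus), 5.41% (cortex) and 6.63% (ventral hippocampus) had an unadjusted p under 0.05. In the amygdala all 3 genes of cholinergic neurons had a KO effect that was higher in females than in males, by 4.49 ± 1.84 for Chat, 3.48 ± 1.48 for Slc5a7 and 4.34 ± 1.72 for Slc18a3, each with an adjusted p of 0.88 in edgeR. Amygdala Chat was 3.19, 3.5 and 5.03 CPM in female KO against 0.883 and 2.75 in female WT, and 0, 0.112 and 1.1 CPM in male KO against 0.131, 2.27 and 11.2 CPM in male WT. Female KO libraries lie above female WT libraries there in Chat and Slc18a3, 2 of the 10 genes, where 16.5% of all genes had separate ranges in females, and male values overlap in all 10 (8.97% of all genes separate). Without male WT 12 the differences were 2.64, 1.53 and 2.07 for Chat, Slc5a7 and Slc18a3, and 1 of the female KO libraries, that of mouse 6, stood apart by its striatal markers. The female KO libraries of mice 4 and 5 scored 7.03 and 7.41 on choroid plexus markers, and no other amygdala library was above 4.11. On hippocampal field markers mice 4 and 5 scored 5.14 and 5.21, and no other amygdala library was above 4.37. The part of these markers in the differences was not tested. The other 3 with an unadjusted p under 0.05 were Chrm2 in the dorsal striatum (0.70 ± 0.32) and Chrm3 and Chrm2 in the ventral hippocampus (-1.19 ± 0.37 and -1.70 ± 0.82, the first with an adjusted p of 0.72 in edgeR).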

How the data were processed

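Per the labels' protocols, poly(A) RNA was taken from 300 ng of total RNA for each library. The authors deposited raw read counts per gene symbol, 1 table per sex, with whole numbers and no normalization. The submitters' processing notes name STAR 2.5.2a, SAMtools 1.1, HTSeq 0.6.1, DESeq2, R 4.0.2 and the builds GRCm38 and mm10, with no role or order. The annotation and the strand setting are not given in the sources used here. The library kit named in the labels does not mark strand, so antisense overlaps cannot be told apart. All sample columns were used, and replicates are different mice.

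Libraries were grouped by the region, sex, genotype and mouse in their titles. CPM is counts scaled to a column total of 1000000. Lengths and positions come from GENCODE M21, looked up by symbol. edgeR 4.0.16 (limma 3.58.1, R 4.3.3) was fitted to all genes kept by filterByExpr (minimum count 10, minimum total 15) with TMM scaling and the quasi-likelihood test. P-values were adjusted by Benjamini-Hochberg over all genes tested, with a threshold of 0.05. KO and WT were fitted with sex as a term, the sex difference of the KO effect as an interaction, and regions within a depth set with sex and genotype group as terms. Errors of fold changes are SE. The rule for names took the 10 genes in every comparison, Acss2 and Xist as label checks, any wider acetylcholine gene called in a KO comparison, up to 3 wider genes with the smallest adjusted p per region contrast, and the 3 most similar genes per member. The fitted folds of Lhx8 against the dorsal hippocampus are not printed (it had at most 1 count per library there). A gene of these lists is not reported here. The members and lists were chosen with earlier results of these data known.

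Alternatives were DESeq2's size factors, the DESeq2 1.42.0 Wald test, no filter on low counts, each sex alone, WT libraries only, the mouse as a replicate block, no library labelled prefrontal female WT 23, and each mouse left out. Leaving out the 7 libraries beyond a striatal marker score of 7 was chosen after seeing the data. The labels' mouse number ties regions of 1 animal together. Deviations from group means correlated at 0.0481 on average over 69 pairs of libraries of the same mouse in the deeper set (-0.0221 over 138 other pairs) and at -0.0191 over 24 pairs in the shallower set (0.0095 over 49). Over 73 pairs of replicates of a group, chi-square per gene was 1.44 to 51.8, and 0 pairs were identical. Tested on simulated data with 200 genes changed by a log2 change of 1, the KO fits called 135 of 194 changed genes tested in the ventral striatum, 140 of 197 in the dorsal striatum and 109 of 196 in the prefrontal cortex.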

Additional observations from a re-analysis of the deposited data

Results flagged for a closer look

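Within each region and genotype, with the sexes together, 24 of 136 groups of 4 to 6 libraries had an end value whose gap to its neighbour was large for the group's range by Dixon's test. The test flags about 1 in 20 groups when values are independent and normally spread. Groups of very low counts and genes of the same library do not meet that, so this rate cannot show an excess here. Of the 24, 12 came from 5 libraries in which at least 2 members lay at the same end.

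Female KO 6 had the highest Chat, Slc5a7 and Slc18a3 of the KO libraries in the dorsal hippocampus, at 4.91, 10.3 and 2.40 CPM, and in the ventral hippocampus, at 11.4, 20.8 and 5.19 CPM. The amygdala library of male WT 12 had 11.2 CPM of Chat and 6.79 CPM of Slc18a3, the highest of WT there. The ventral striatum library of male KO 10 had the lowest KO values of Chat, 3.98 CPM, and Slc5a7, 9.86 CPM, and the dorsal striatum library of the same mouse had the highest KO value of Chrm3, 85.4 CPM.

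Ache was highest among WT in the dorsal hippocampus of female WT 23 (125 CPM), highest among KO in the ventral hippocampus of male KO 10 (137 CPM) and lowest among WT in the prefrontal cortex of male WT 12 (39.2 CPM). In the prefrontal cortex of female KO 4, Chrm1 was the lowest of KO (157 CPM) and Chrm2 the highest (26.4 CPM), and Chrm2 was also the highest of KO in the dorsal hippocampus of that mouse (23.5 CPM). Male WT 13 had the highest WT values of Chrm2 (28.1 CPM) and Chrnb2 (81.9 CPM) in the dorsal striatum and of Chrm3 (87.9 CPM) in the dorsal hippocampus. Chrnb2 was highest among WT in the dorsal hippocampus of male WT 12 (77.2 CPM).

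The last 3 rest on few counts: Slc18a3 at 2.09 CPM (2 counts) in the cortex of male WT 3, Slc5a7 at 8.22 CPM (7 counts) in the cortex of female WT 24, and Slc5a7 at 2.21 CPM (2 counts) in the ventral hippocampus of female WT 23.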

How the results depend on the processing

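No call of a member reversed direction under any alternative run. KO, sex and interaction counts of called members stayed at 0 in every leave-one-out fit, and the KO count in the ventral hippocampus was 1 with no filter on low counts (Chrna4, 0.83, adjusted p = 0.0258 in edgeR). In WT libraries only, with fewer samples, the number of called members was 1 for ventral against dorsal striatum, 3 for ventral striatum against amygdala, 4 for dorsal striatum against dorsal hippocampus, and 1 each for cortex against ventral hippocampus, cortex against prefrontal cortex and ventral hippocampus against prefrontal cortex. The DESeq2 Wald test gave 1 for ventral hippocampus against prefrontal cortex; the cause was not tested. With each mouse left out in turn, the counts ranged from 2 to 8 for amygdala against dorsal hippocampus and from 1 to 3 for ventral hippocampus against prefrontal cortex, each lowest without male WT 12. They ranged from 2 to 4 for cortex against ventral hippocampus, 4 to 6 for ventral striatum against amygdala and 6 to 7 for dorsal striatum against dorsal hippocampus, and did not change in the other 4 contrasts of regions.

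With the mouse as a replicate block, which pairs regions of 1 animal, Chrnb2 gained its call between ventral striatum and amygdala (0.17, adjusted p = 0.0219) and lost it between cortex and ventral hippocampus (-0.28, adjusted p = 0.0721), and no other call changed. A paired analysis of KO against WT was not possible because each mouse has 1 genotype. Another scaling moved the median of all genes by at most 0.0121 on the log2 scale. Chat, Slc5a7 and Slc18a3 did not pass the filter for KO tests in the dorsal hippocampus, cortex, ventral hippocampus and prefrontal cortex, so no KO test of them is given there. In the shallower set levels below the floor of 2.44 to 4.76 CPM were not detectable at this depth.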

Other observations

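Chat and Slc18a3 share a locus in which a start of 1 lies 1139 bases from that of the other, and the ratio of their levels per kilobase was looked at as a description. Where Chat had at least 20 counts, Slc18a3 was 1.11 to 1.56 times Chat per kilobase in 5 amygdala libraries (median 1.21), against medians of 0.917 in the ventral and 0.778 in the dorsal striatum. Slc5a7 was 1.15 to 2.53 times Chat in the same 5 amygdala libraries (median 1.85). Chrm4 and Chrna4 lie on the chromosome of Acss2, chromosome 2, at distances of 63.6 and 25.4 megabases, and neither was called between KO and WT in any of the 7 regions with the filter on low counts; with no filter Chrna4 was called in the ventral hippocampus.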
